A study of Anguilla anguilla and Anguilla rostrata with 84 samples.

Results

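In livers of European eels fed methylmercury, 23 of the 732 contigs kept, out of 992 on the array, deviated more than under any other laboratory treatment, 14 of them higher and 9 lower. Contigs are assembled transcript sequences. The deviation D of a contig in a group is the group mean minus the mean of the 9 treatment means, on the log2 scale. The 60 contigs with the largest median spread between fish within the 17 groups were dropped first. The 200 contigs whose largest absolute D over the treatments was smallest were dropped next, and 732 remained. A contig belongs to the methylmercury set when it was kept and its largest absolute D fell in the methylmercury group. A further 6 contigs with their largest absolute D there were dropped by the first of these filters and 21 by the second. The set was thus chosen by the values of the methylmercury fish, so D and every difference from the methylmercury fish are given as a description, without a test.

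Methylmercury is the organic form of mercury that builds up along aquatic food chains and reaches fish mainly through their diet. It binds to thiol groups of proteins and small peptides, and the liver, which takes up much of what the gut absorbs, is a site of its storage and transformation. Thiol and metal defence genes would be the usual ones to look up, but none of the contigs could be matched to a gene name (0 of 992 identifiers matched the gene table of the reference assembly). Contigs are therefore given by identifier, and no gene group, cell type marker or sequence could be set beside them. For the same reason the liver label was not checked against marker genes.

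Every fish was labelled with Cy3 and hybridised to 1 array beside a common Cy5-labelled pool of 30 wild eels from Certes, France, and a value is the log2 ratio of fish over pool. The methylmercury group held 5 fish that received 5 ug/g dry weight in food. The other treatments were a restricted diet (2.5% of body weight), high salinity (18 per mil), dietary polychlorinated biphenyls (PCB, 50 or 300 ng/g of dry food), waterborne cadmium (0.4 or 4 ug/L), a dietary mix of organochlorine pesticides (13 ng/g of dry food), and low temperature (13 °C). Wild American eels, Anguilla rostrata, came from the Canadian lakes St Pierre and St François and the rivers St Jean and Sud-Ouest. Wild European eels, Anguilla anguilla, came from the French Gironde estuary and the rivers Dordogne and Garonne. The laboratory control and all treated fish were also European eels, and the labels name no treatment for the control. The sources used here do not give exposure time, age or tank.

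After 3 arrays were left out, 81 fish were used, 46 from the laboratory and 35 wild, with 5 fish per group except 4 for the control, PCB at 300 ng/g, cadmium at 4 ug/L and low temperature. Control fish 5 and fish 1 at 4 ug/L cadmium had raw values identical to those of another fish. The partners, high salinity fish 4 and fish 4 at 0.4 ug/L cadmium, were kept and entered the treatment means. Only the processed values of the partners matched these raw values. High salinity fish 4 had 977 contigs above background in both channels, against 730 to 828 on the other arrays of its group. Between low temperature fish 4 and the rest of its group the correlations were -0.56 to -0.49. All 60 pairs of arrays with a correlation below -0.3 included this fish. Its dye direction is not settled and was not tested. The methylmercury arrays had signal above background in both channels for 820 to 969 contigs, against 599 to 842 on the control arrays, and correlated with each other at 0.37 to 0.64. On the array of methylmercury fish 5 the reference channel stood apart, with a median net signal of 5.26 on the log2 scale, against 6.24 to 7.22 on the other 4 arrays of the group.

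The methylmercury set was the smallest of the 9 under the processing used here. It held 3.14% of the 732 contigs, where equal sets would have held 81.3 contigs each, and the other sets held from 5.33% for PCB at 50 ng/g to 20.9% for cadmium at 4 ug/L. That rank depended on the processing and on single fish. It was the smallest under 8 of 13 other settings, and not under the other 5. It held 52 contigs after median centring, against 25 in the smallest other set, and 22 in the authors' processed values, against 15. It held 41 without methylmercury fish 1, against 38, and 47 without fish 2, against 36. Without background subtraction it tied with the restricted diet at 32. The size of D over all contigs was not the smallest under methylmercury, with a median absolute D of 0.119 there and 0.115 to 0.184 in the other treatments. The part of the number of fish in the size of a set, 4 in 3 of the treatments and 5 in the others, was not tested.

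**Figure D1:**
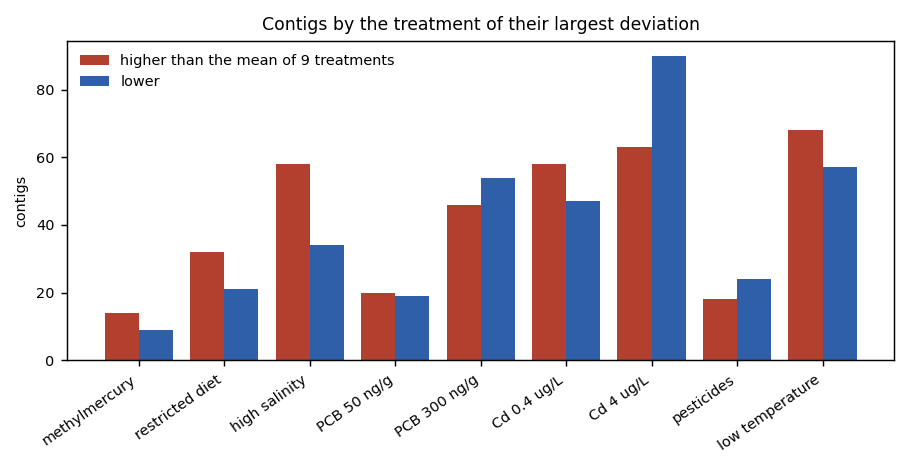
Number of contigs (y axis) whose largest absolute deviation from the mean of the 9 treatments fell in each laboratory treatment (x axis), higher in red and lower in blue. Methylmercury, at the left, had the fewest, with 14 higher and 9 lower.

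Several members were close to leaving the set. For 8 of the 23, the next treatment came within 0.05 of the absolute D in methylmercury. Just inside were contig_15155, with D of 0.31 against 0.30 under low temperature, and contig_23669, with D of -0.36 against an absolute D of 0.35 under the pesticides. Just outside were contig_4710, with D of 0.36 against 0.37 under the pesticides, and contig_6064, with D of -0.25 against an absolute D of 0.26 under PCB at 50 ng/g. A further 21 contigs with their largest D in methylmercury were dropped as too small, the nearest being contig_38657 with D of -0.25, while contig_30734, the member of smallest D, was kept at 0.25. Another 6 were dropped for their spread, the nearest being contig_38621 with a median within-group SD of 0.48, against 0.38 for contig_17499, the most variable member.

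Among the 14 contigs higher under methylmercury, D ran from 0.25 to 0.72 with a median of 0.36. The largest was that of contig_17570, at 0.56, 1.32, 0.73, 0.21 and -0.017 in methylmercury fish 1 to 5, against -0.28, 0.11, -0.35 and -0.14 in the control fish. Its groups overlapped, since methylmercury fish 5 lay below control fish 2. Its mean was 0.56 ± 0.52 (SD, n = 5) under methylmercury and -0.16 ± 0.20 (SD, n = 4) in the control. The sample channel of this contig was above background on 3 of the 4 control arrays. The fish of the other 8 treatments ran from -1.60 to 1.21 with a median of -0.28, and 2 of them lay above the methylmercury mean. The next largest deviation of this contig had the opposite sign, with D of -0.48 under PCB at 300 ng/g. Under the pesticides the contig deviated in the same direction as under methylmercury, with D of 0.43.

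The second, contig_16136, rested largely on 1 fish. It stood at 2.30, 0.55, -0.43, -0.015 and 0.36 in methylmercury fish 1 to 5, against 0.062, -0.40, -0.57 and 0.14 in the control fish. Fish 1 was higher than any other fish measured for this contig in the laboratory, where the treated fish outside this group reached 0.56. Its D was 0.62 with all 5 fish and 0.23 without fish 1.

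Among the 9 contigs lower under methylmercury, D ran from -0.72 to -0.34 with a median of -0.42. The lowest was that of contig_17499, at -2.04, -0.65, -1.23, -0.22 and -0.22 in methylmercury fish 1 to 5, against 0.28, 0.28, 0.26 and 0.43 in the control fish. All 5 methylmercury fish lay below all 4 control fish. No fish of the other 8 treatments lay below the methylmercury mean of -0.87 ± 0.77 (SD, n = 5), and they ran from -0.87 to 1.25. Without fish 1, D was -0.46. In wild eels this contig had single high values, with 3.92 in St Pierre fish 5 and 1.94 in St François fish 5.

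The second, contig_39242, overlapped with the control. It stood at -0.20, 0.060, -0.62, -0.22 and -1.05 in methylmercury fish 1 to 5, against 0.039, 0.16, 0.064 and -0.23 in the control fish. Low temperature had nearly the same deviation, with D of -0.42 against -0.46 under methylmercury, and 3 fish of the other treatments lay below the methylmercury mean. Without fish 5, D was -0.31.

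**Figure D2:**
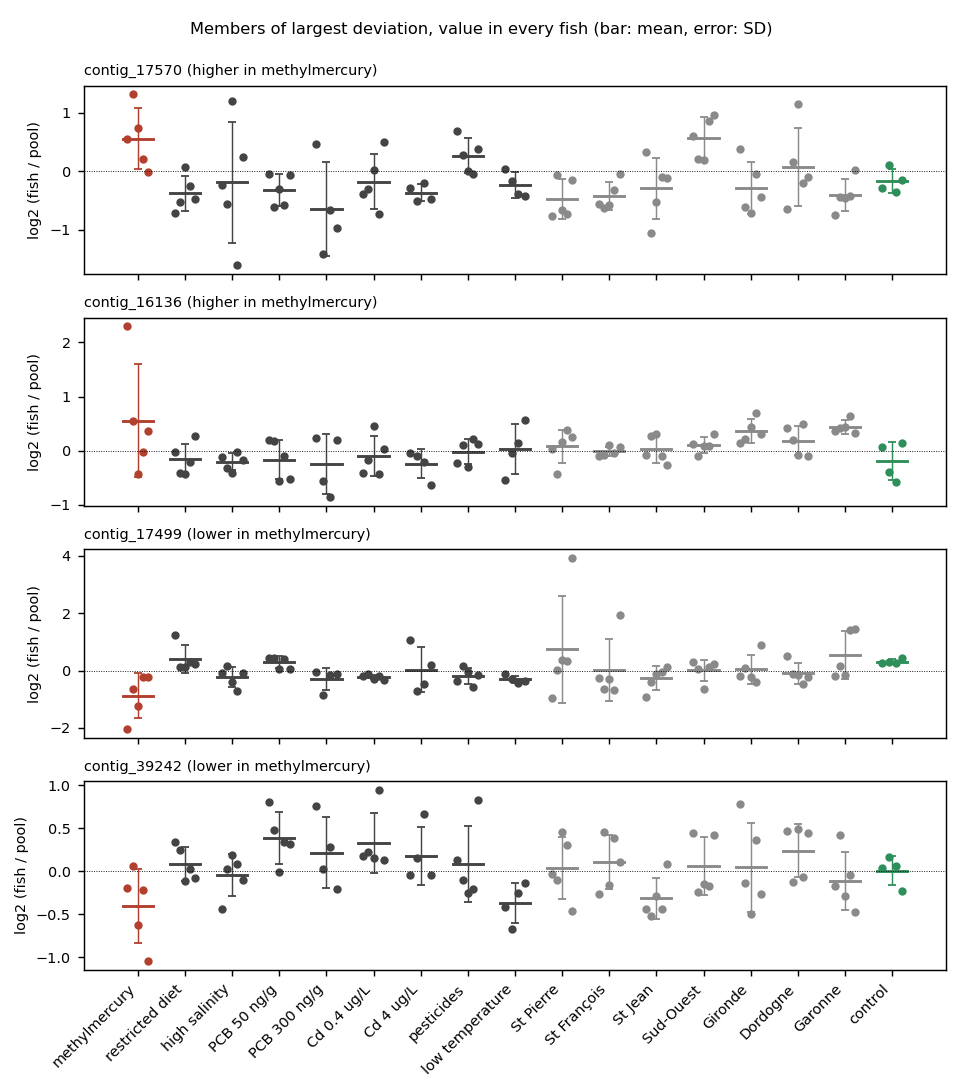
Log2 ratio of fish over pool (y axis) in every fish of the 17 groups (x axis) for the pair of contigs with the largest deviation in each direction. Points are fish, bars are group means and error bars are SD. For contig_16136 the highest point is methylmercury fish 1 at 2.30, and for contig_17499 all methylmercury fish lie below the control fish.

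The other 12 higher contigs had D between 0.25 and 0.49, and the other 7 lower contigs between -0.45 and -0.34. For 10 of the 14 higher and 7 of the 9 lower contigs, the next largest deviation had the opposite sign. The values of D of a contig sum to 0 over the 9 treatments, which favours the opposite sign by construction. All 5 methylmercury fish lay above the mean of the other 8 treatments for 6 of the 14 higher contigs, and below it for 3 of the 9 lower ones. The SD between methylmercury fish was 0.16 to 1.05 (median 0.43) over the higher contigs and 0.42 to 0.77 (median 0.55) over the lower ones.

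The 5 fish contributed unequally. The median distance of a fish from the mean of the other 8 treatments over the 14 higher contigs was 0.20, 0.54, 0.36, 0.37 and 0.39 in fish 1 to 5. Over the 9 lower contigs it was -0.31, -0.048, -0.46, -0.33 and -1.03. Fish 5 was the lowest of the 5 over the lower contigs, and fish 2 was near 0 there and highest over the higher contigs. Over all 992 contigs these medians lay between -0.016 and 0.027. The part of the low reference signal of fish 5 in its values was not tested.

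The control fish took no part in the means that defined D, but the methylmercury fish did and so chose the contigs. That choice favours a difference from the control in the same direction, so the counts below are a description. Over all contigs, the methylmercury mean minus the control mean had a median of 0.022. The methylmercury mean was above the control mean for 14 of 14 higher contigs, by 0.28 to 0.78 (median 0.53), and below it for 9 of 9 lower contigs, by -1.18 to -0.38 (median -0.52). The groups did not overlap for 2 of the higher contigs, contig_15489 and contig_15155, where 3.63% of all contigs lay above the control in this way. They did not overlap for 3 of the lower ones, contig_17499, contig_16088 and contig_21561, where 3.43% of all contigs lay below it. In the authors' deposited table the difference from the control had the opposite sign for contig_15155 (-0.17), contig_39162 (-0.21), contig_17208 (-0.13) and contig_30734. The other higher contigs and all 9 lower ones kept their sign there. All these names were chosen after their values were seen. The fish of contig_15489 stood at 0.38, 0.41, 0.14, 0.19 and 0.049 under methylmercury, against 0.026, -0.74, -0.35 and -0.55 in the control, which made it the higher contig with the smallest spread between methylmercury fish. For contig_30734 the sample channel was above background on 3 of 5 methylmercury arrays and 0 of 4 control arrays, so its control values are not well above background and no fold is given. That channel was above background on 1 of 4 control arrays for contig_17208 and on 2 of 4 for contig_13894 and contig_14224. It was so on 3 of 4 for contig_17570, contig_15239 and contig_22503. All these contigs entered the counts and medians given here.

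The control itself did not sit at the mean of the other treatments. It lay below the mean of the other 8 treatments for 10 of the 14 higher contigs (median difference -0.080) and above it for 6 of the 9 lower contigs (median 0.12), where 51.6% of all contigs lay below it (median -0.0088). These 8 treatments took part in the choice of the contigs, so the counts are a description.

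**Figure D3:**
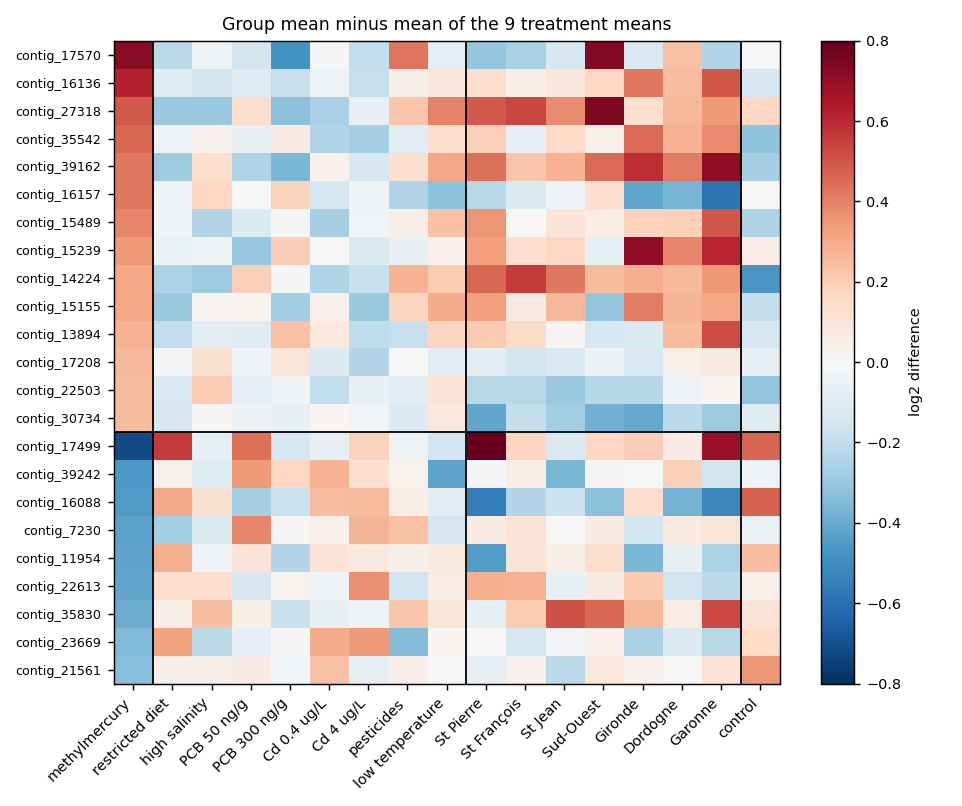
Group mean minus the mean of the 9 treatment means (colour, log2) for the 23 contigs (rows, 14 higher above the line and 9 lower below it) in 17 groups (columns, methylmercury first, then the other treatments, the wild sites and the control). Values beyond the ends of the scale take the end colour. Methylmercury is the most extreme of the 9 treatments in every row by the rule, while wild sites exceed it in several rows.

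Of the 17 groups, wild sites included, methylmercury had the highest mean for 6 of the 14 higher contigs and the lowest for 7 of the 9 lower ones. The higher contigs were above the mean of the treatments in Canadian wild eels for 10 of 14 (median D 0.083) and in French wild eels for 9 of 14 (median D 0.27). The lower contigs were below it in Canadian eels for 5 of 9 (median D -0.027) and in French eels for 4 of 9 (median D 0.0079). Over all contigs the median was 0.0026 in Canadian and 0.0015 in French eels, with 50.3% and 50.5% of contigs above 0. The mean of the treatments took part in the choice of the contigs, so these counts are not free of it and are a description. For contig_17570, methylmercury had a mean of 0.56 ± 0.52 (SD, n = 5), next to the highest mean of the 17, 0.57 ± 0.36 (SD, n = 5) at Sud-Ouest, a difference below the spread of either group.

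To see how far the deviations carried over to a fish that had no part in the choice, the set was chosen again without each methylmercury fish in turn, and the fish left out was then measured over the contigs chosen. The other 4 fish gave medians of 0.36 to 0.45 over the contigs chosen as higher. The fish left out gave 0.0091, 0.14, 0.12, 0.085 and 0.12 for fish 1 to 5, above 0 in all 5 but with a median of 0.12. Over the contigs chosen as lower, the other 4 fish gave -0.49 to -0.44, while the fish left out gave 0.11, -0.050, -0.12, 0.031 and -0.24, below 0 in 3 of 5 with a median of -0.050. Counted over contigs and fish, 61.8% of the values were above 0 for contigs chosen as higher and 59.0% were below 0 for those chosen as lower. Over all contigs kept, 48.6% to 50.7% of the values of a fish left out were above 0. The 5 choices share fish, so these counts are not independent. A fish left out was also measured from the mean of the same other 8 treatments that took part in the choice, so 0 is not the value that no change would give.

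**Figure D4:**
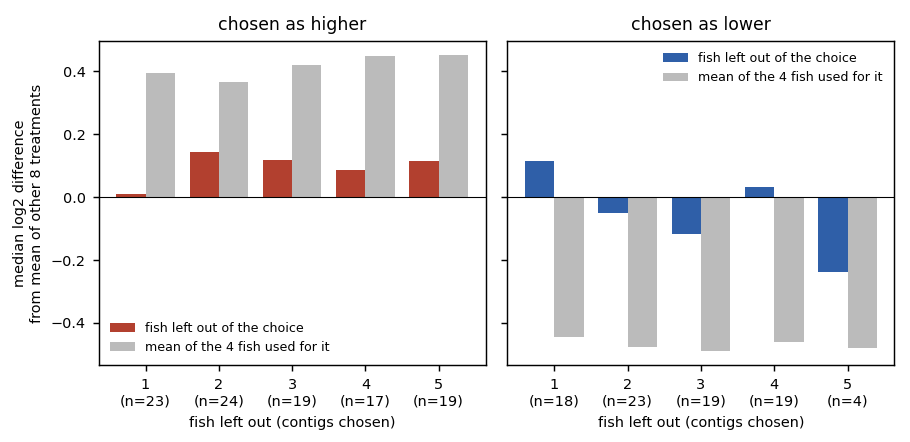
Median log2 difference from the mean of the other 8 treatments (y axis) over the contigs chosen without 1 methylmercury fish (x axis, with the number of contigs chosen), for the fish left out (coloured) and the mean of the 4 fish used (grey). The fish left out reach at most 0.14 on the higher side, against 0.36 or more for the fish used.

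The same procedure gave medians of 0.14 to 0.44 over higher contigs and -0.37 to -0.14 over lower contigs in the other 8 treatments. Methylmercury thus had the value nearest to 0 in both directions under the processing used here, with the pesticides close to it on the higher side. That difference between treatments was not tested. In the authors' processed values the methylmercury medians were 0.46 and -0.48, and the other treatments were not measured in this way under other settings. D itself had another size there, larger for contig_17570 (1.68 against 0.72) and smaller for contig_16136 (0.50 against 0.62). The medians of the fish used in the choice were not taken there, so the sizes cannot be compared directly. Of the 14 higher contigs, 4 were chosen again in all 5 repeats, namely contig_17570, contig_35542, contig_39162 and contig_15489, named after their values were seen. In the authors' deposited table, 2 of these had a D of the opposite sign, at -0.022 for contig_35542 and -0.18 for contig_39162. The sign also turned for contig_15155, at -0.18, and for contig_30734, at -8.35. The sample channel of contig_30734 was above background on 3 of 5 methylmercury arrays. Of the 11 higher contigs with a D in that table, 7 kept their sign, as did 9 of the 9 lower ones. Of the 9 lower contigs, 0 were chosen in all 5 repeats, and without fish 5 the lower set shrank to 4 contigs, of which 2 were among the 9. For contig_35542 the methylmercury fish stood at 0.11, 1.42, 0.98, 0.88 and 0.73, against 0.18, -0.12, -0.0093 and 0.12 in the control, so that fish 1 alone lay within the range of the control. For contig_39162 they stood at -0.20, -0.14, -0.11, -0.38 and -0.79, against -0.60, -0.86, -1.42 and -1.17, so that fish 5 alone did.

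The wild fish had no part in D and entered the choice only through the filter on spread, which allowed tests on the same contigs. These tests ask whether the contigs also differ between wild eels, or between wild and laboratory eels, and they do not measure methylmercury. All 23 contigs entered every fit, and limma's moderated tests were adjusted over 992 contigs. Canadian eels had lower values than French eels at 2 of the 14 higher contigs and at 0 of the 9 lower ones, where 3.53% of all contigs differed (1.41% higher and 2.12% lower). At an unadjusted p under 0.05, 5 of the 14 and 0 of the 9 differed, where 17.0% of all contigs did.

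The clearer of these, contig_15239, ran from -0.52 to 0.45 (median -0.034) in 20 Canadian fish and from -0.19 to 1.00 (median 0.40) in 15 French fish. Its mean was -0.040 ± 0.23 (SD) in Canadian and 0.39 ± 0.34 (SD) in French eels, a difference of -0.43 (SE 0.092, adjusted p = 0.0048). The difference remained past the threshold without any 1 of the 35 fish. Its site means ran from -0.25 to 0.15 in Canada and from 0.21 to 0.53 in France. The SE and p of this comparison rest on the spread between fish within sites. They do not measure the spread between sites, and neither does leaving out 1 fish. The other, contig_16136, averaged 0.048 ± 0.20 (SD, n = 20) in Canadian and 0.33 ± 0.23 (SD, n = 15) in French eels, a difference of -0.28 (SE 0.078, limma adjusted p = 0.037). That call was lost without any 1 of 9 fish, namely St Jean fish 1 and 5, Sud-Ouest fish 2, St François fish 4, Dordogne fish 1 and 4, Gironde fish 3 and 4, and Garonne fish 4 (adjusted p from 0.052 to 0.072). It was also lost after median centring, where the difference was -0.011 (limma adjusted p = 0.95), without background subtraction (-0.28, limma adjusted p = 0.065) and in the authors' processed values (-0.37, limma adjusted p = 0.19). Species and country cannot be told apart in this comparison, and the contigs were hybridised beside a pool of European eels. Under methylmercury, the same contig_15239 had stood at -0.27, 0.018, 0.15, 0.51 and 0.41, and its D was 0.34.

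Within Canada, a moderated F test among the 4 sites gave an unadjusted p under 0.05 for 1 of the 14 higher and 1 of the 9 lower contigs. This compares with 13.4% of all contigs. After adjustment the sites differed for 1 of the 23 contigs, where 2.92% of all contigs differed. This was contig_17570, with site means of 0.57 ± 0.36 at Sud-Ouest, -0.29 ± 0.52 at St Jean, -0.47 ± 0.34 at St Pierre and -0.42 ± 0.24 at St François (SD, n = 5 each, limma adjusted p = 0.034). The Sud-Ouest fish stood at 0.60, 0.22, 0.20, 0.86 and 0.97, all above the 5 fish of St Pierre and the 5 of St François, while St Jean fish 1, at 0.33, lay among them. The call was lost without any 1 of 8 fish, namely Sud-Ouest fish 1, 4 and 5, St Pierre fish 1 and 3, and St François fish 1, 2 and 3 (adjusted p from 0.052 to 0.17). The lakes St Pierre and St François against the rivers St Jean and Sud-Ouest gave 0 of 23 in limma, where 1.61% of all contigs passed (0.907% higher and 0.706% lower) and 2 of the 23 had an unadjusted p under 0.05, against 11.7% of all contigs. One of these was again contig_17570, at -0.45 ± 0.28 in lakes and 0.14 ± 0.62 in rivers (SD, n = 10 each, limma adjusted p = 0.11).

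Within France, Gironde against Dordogne and Garonne gave 0 of 23 in limma, where 1.11% of all contigs passed (0.605% higher and 0.504% lower) and 3 of the 23 had an unadjusted p under 0.05, against 13.8% of all contigs. The F test among the 3 French sites also gave 0 of 23, where 0.302% of all contigs passed and 1 of the 23 had an unadjusted p under 0.05, against 12.3% of all contigs. The smallest adjusted p was 0.16 in the first of these and 0.22 in the second, both for contig_13894, a higher contig named after its values were seen. Its mean was -0.087 ± 0.26 (SD, n = 5) in Gironde and 0.41 ± 0.45 (SD, n = 10) in the 2 rivers.

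French wild eels differed from the laboratory control of the same species at 5 of the 23 contigs, where 19.0% of all contigs did, so the share among the 23 was near that of the array. Among the 14 higher contigs, 4 had higher values in French eels (10.9% of all contigs were higher), and among the 9 lower ones 1 had lower values (8.06% of all contigs were lower). The differences of the higher contigs ran from -0.46 to 0.83 with a median of 0.43, and 11 of 14 were above 0. Those of the lower contigs ran from -0.72 to 0.17 with a median of -0.15, and 6 of 9 were below 0. Over all contigs the median was 0.024, with 52.5% above 0.

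The largest was that of contig_39162, which ran from -0.57 to 0.70 (median -0.25) in 15 French fish, above all 4 control fish at -0.60, -0.86, -1.42 and -1.17, a difference of 0.83 (SE 0.25, limma adjusted p = 0.020). For contig_14224 the French fish ran from -0.19 to 0.52 (median -0.044) and the control fish stood at 0.014, -0.28, -0.90 and -1.53, a difference of 0.76 (SE 0.20, limma adjusted p = 0.0090). These groups overlapped, and the sample channel of contig_14224 was above background on 15 of 15 French arrays and 2 of 4 control arrays. Without background subtraction its difference was 0.21 (limma adjusted p = 0.11). The others that were higher were contig_16136, by 0.52 (SE 0.14, limma adjusted p = 0.0076), and contig_15239, by 0.51 (SE 0.15, limma adjusted p = 0.018). Among the lower contigs, contig_16088 ran from -0.12 to 1.24 (median 0.69) in French fish, against 1.31, 1.68, 1.28 and 1.23 in the control, a difference of -0.72 (SE 0.23, limma adjusted p = 0.029).

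These 5 calls rested on the 4 control fish. Their SE and p measure the spread between fish within groups, and the laboratory side is 1 group. Leaving out control fish 3 or control fish 4 left 1 call each, that of contig_14224 without fish 3 and that of contig_16136 without fish 4, with differences of 0.70 to 0.78 for contig_39162, and contig_16088 was also lost without control fish 2 (-0.62). Median centring in place of loess, and scaling between arrays, each left 0 calls. The arrays of the French fish had 759 to 992 contigs above background in both channels, against 599 to 842 for the control, and the part of this in the differences was not tested. The control fish are the same as those set against methylmercury above, so the values share them. For contig_16088 the methylmercury fish stood at 0.80, 1.15, 0.35, -0.42 and 0.40, below all control fish.

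**Figure D5:**
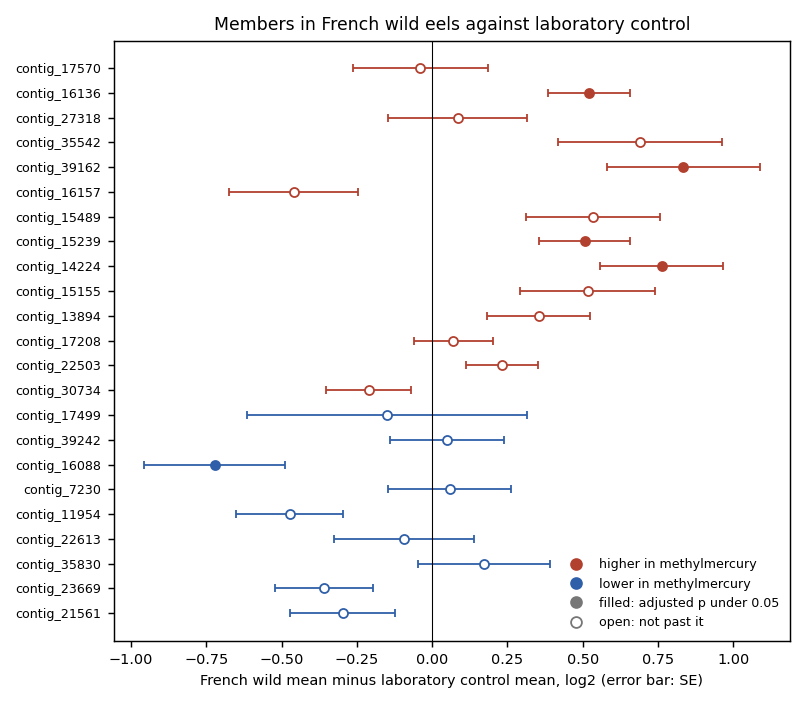
Difference between the mean of the 3 French sites and the laboratory control (x axis, log2, error bars are SE) for the 23 contigs (y axis), in red those higher and in blue those lower under methylmercury. Filled points passed an adjusted p of 0.05, 4 among the red and 1 among the blue.

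In wild eels the correlations between members were near 0. After each site mean was subtracted, the median Pearson correlation over 35 fish was 0.046 over the 91 pairs of higher contigs, 0.036 over the 36 pairs of lower contigs and -0.0055 over mixed pairs, against -0.00032 over all pairs of contigs. These fish share the pool and the array design, and the correlations are a description.

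The lower contigs lay on brighter spots than most. The median of the mean log2 spot brightness of both channels was 8.21 over the higher contigs, 9.65 over the lower ones and 7.90 over all 992, a property of the spots and not a transcript level. The sample channel was above background on a median of 96.9% of 81 arrays for the higher contigs and on 100% for the lower ones, against 96.3% over all contigs. The median SD between the 3 spots of a contig was 0.15 for the higher contigs, 0.12 for the lower ones and 0.15 for all. The lowest detection among the 23 was that of contig_30734, above background in the sample channel on 53.1% of arrays. The median SD between fish of a group was 0.27 for the higher contigs and 0.28 for the lower ones, against 0.25 for all, after the most variable contigs had been dropped by the rule.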

How the data were processed

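Liver RNA of 84 eels was measured, and 81 were used. The authors deposited spot intensity values of both channels, with foreground and background columns for each array, per the file headers, and these ran from 4 to 65535. The authors also deposited processed log2 ratios of fish over pool per contig, each array centred on a median of 0, and 80 of the 84 could be rebuilt out of that fish's own raw values (mean absolute difference under 0.01 after centring). The sources used here do not give the tools behind either. Restricted diet fish 2 and 3 were exchanged between the tables, and control fish 5 and fish 1 at 4 ug/L cadmium matched no raw column.

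In limma 3.58.1 (R 4.3.3), normexp background correction with offset 50 was followed by within-array loess and a mean over the 3 spots of a contig. Fits with a mean per group (lmFit, eBayes, two-sided) used 35 wild fish, or 4 control and 35 wild fish, with Benjamini-Hochberg adjustment over 992 contigs and a threshold of 0.05. The SE and p of these fits rest on the spread between fish within groups, not on that between sites. Signal above background means a mean net signal above 0. No filter on dim contigs was applied. The series' design text calls the fish individuals, and their number limits the precision.

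A fit of methylmercury against the control is not given, since the methylmercury fish chose the contigs. The contigs, lists and tests were chosen with earlier results of these data known. The contigs named were, for methylmercury, the 2 of largest D in each direction with signal above background on all 5 arrays and those nearest the limits of the rule. For each comparison of 2 sides they were the 2 of largest difference in each direction among those past the threshold. A condition on sample signal above background in the higher group also applied. For the F tests among sites they were up to 2 of smallest adjusted p among those past the threshold. Contigs outside this rule were named after their values were seen. Gene and cell type marker lists were not run, since 0 of 992 contigs matched a gene name. Alternatives were median centring, scaling between arrays, the authors' processed values, no background subtraction, dim contigs left out (below the 0.25 quantile), no filter on spread, low temperature fish 4 kept, only the groups compared, and each fish left out. Omitting the arrays on which fewer than 500 contigs exceeded background was chosen after seeing the data.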

Additional observations from a re-analysis of the deposited data

Results flagged for a closer look

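Within methylmercury and control groups of 4 or 5 fish, the highest or lowest fish of 6 of 46 groups lay far from the others by Dixon's limit at 95%, where chance gives about 1 in 20 for groups not chosen by their values. They were 2 of 23 contigs in methylmercury, where 8.87% of all 992 contigs passed the limit, and 4 of 23 in the control, where 6.55% did. The methylmercury fish chose these contigs, so the rate of chance does not hold for them. Methylmercury fish 5 was one such fish for 2 lower contigs. For contig_11954 it stood at -1.34, with the other 4 fish between -0.0020 and 0.38, and for contig_21561 at -1.32, with the others between -0.17 and -2.84e-05. Without this fish, D was -0.15 for contig_11954 and -0.13 for contig_21561, against -0.42 and -0.34 with it. Its array also had the lowest reference signal of the group, and the part of this in the values was not tested.

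The other 4 were control fish. Control fish 3 stood at -0.46 for contig_17208, with the others between 0.089 and 0.18, and the sample channel was above background on 1 of 4 control arrays for this contig. Control fish 2 stood at 0.26 for contig_15239, with the others between -0.28 and -0.20, and at 1.68 for contig_16088, with the others between 1.23 and 1.31. Control fish 4 stood at 0.43 for contig_17499, with the others between 0.26 and 0.28. For contig_16088 and contig_17499 the fish lay further from the methylmercury fish than the other control fish did.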

How the results depend on the processing

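Membership moved with the processing. The higher set had 23 contigs without background subtraction (12 of the 14 among them) and 17 to 24 with 1 methylmercury fish left out. The lower set had 36 after median centring (8 of the 9 among them) and 4 to 23 with 1 methylmercury fish left out. In the authors' processed values the counts were 11 and 11, with 1 and 2 contigs shared, and without the 3 arrays under 500 contigs above background they were 10 and 11, with 9 and 7 shared. The deviation of contig_17570 was 1.68 in the authors' processed values. The median of the fish left out was 0.0111 without background subtraction, 0.46 in the authors' processed values and 0.0062 after scaling over higher contigs. Over lower contigs it was -0.23 after median centring, -0.48 in the authors' processed values and, with its sign turned, 0.0048 after scaling. The size of D also moved with the setting, so these medians are not directly comparable in size.

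Calls between Canadian and French eels numbered 6 after median centring, 1 without background subtraction and 1 in the authors' processed values (1 to 3 with 1 fish left out). Those for lakes against rivers numbered 0 to 1 with 1 fish left out, 1 without St Jean fish 2. Those between French eels and the control numbered 0 after median centring and 0 after scaling. They numbered 3 without background subtraction, 10 in the authors' processed values, and 1 to 6 with 1 fish left out. In the authors' values, 3 of the 10 were among the 5 calls of the processing used here. The calls of contig_39162 (0.42, limma adjusted p = 0.22) and contig_14224 (0.87, limma adjusted p = 0.17) were lost there. With only the groups compared in the fit, the call of contig_15239 was lost (limma adjusted p = 0.051). The call among Canadian sites fell to 0 after median centring, without background subtraction, in the authors' processed values and after scaling (0 to 1 with 1 fish left out). Methylmercury against the control was not tested under any setting, since the methylmercury fish chose the contigs. The cause was not tested for any of these. The difference of contig_15239 between Canadian and French eels passed under all 6 other settings and without any 1 fish, from -0.78 to -0.19. No paired analysis was possible because the replicate numbers only name fish. Slide could not be fitted as a block, since each slide held 1 array.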
